A study of Mus musculus with 9 samples.

Results

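The 10 genes described here mark radial glia and neural progenitors, namely the transcription factor genes Sox1, Sox2, Sox3, Sox9 and Pax6 and the marker genes Nes, Vim, Fabp7, Slc1a3 and Prom1. They were chosen by name, with earlier results of these data known. Each had 1 row among the 21356 gene names of the deposited expression table. All 10 were among the 14029 genes tested. The tissue was the midbrain at E13.5, from C57BL/6 fetuses, as poly-A selected RNA in 9 libraries. The 3 genotypes gave 3 libraries each, the floxed control (Gpr161f/f), the Cre control (Gpr161f/+;Wnt1-Cre) and the conditional knockout, called cKO here, which the labels spell Gpt161f/f;Wnt1-Cre. All 9 libraries therefore came from fetuses with at least 1 floxed Gpr161 allele, and the fetuses of both Cre genotypes carried the Wnt1-Cre transgene. Gpr161 encodes a receptor known as a negative regulator of Sonic hedgehog signaling, and Wnt1-Cre drives recombination in the dorsal midbrain neuroepithelium and in the neural crest, so that cells outside this lineage kept Gpr161. The comparisons asked how progenitor gene expression differed when Gpr161 was lost from this lineage, and whether the Cre control differed from the floxed control.

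In the embryonic midbrain, radial glia line the ventricle, divide there, and give rise to neurons that migrate outward. The SoxB1 factors Sox1, Sox2 and Sox3 are known to hold neural cells in the progenitor state and are shut down as neurons differentiate, and Sox9 and Pax6 act in progenitors in a region-dependent way. Nestin and vimentin, encoded by Nes and Vim, form the intermediate filaments of the radial fibers, while Fabp7, Slc1a3 and Prom1 encode a fatty acid binding protein, a glutamate transporter and an apical membrane protein of these cells.

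The authors had brought the libraries to a common scale and gave log2 values. The table holds no read counts, so the depth behind a value is unknown, and a log2 fold change is a difference of these values. Linear models were fitted to all tested genes with limma, and a gene was said to have risen or fallen when its Benjamini-Hochberg adjusted p was under 0.05. The labels do not say whether each library came from a separate fetus or litter, so p-values measure the spread between these libraries only. Gpr161 itself was listed at 11.80, 11.74 and 11.78 in the floxed control, at 11.77, 11.91 and 11.96 in the Cre control and at 11.74, 11.95 and 11.94 in the libraries labelled cKO. For cKO against floxed control its difference was 0.11 (log2, limma adjusted p = 0.223), which did not pass. The table has 1 value per gene and does not separate the deleted part from the rest, so Gpr161 does not check the cKO label. Wnt1, which the Wnt1-Cre line is known to express ectopically, was between 10.57 and 11.01 in the 6 libraries labelled with Wnt1-Cre and between 9.08 and 9.25 in the floxed control, with no overlap. It was lower in the cKO (10.57, 10.80 and 10.59) than in the Cre control (11.01, 10.91 and 10.89), by a log2 fold change of -0.28 (limma adjusted p = 0.0373), a call that held in 11 of 20 alternatives.

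Promoter sequences were at hand for 8 of the 10 genes, all but Sox3 and Sox9, from RefSeq on GRCm38.p6. The 120 bases before the RefSeq start of the transcript are shown, 5′ to 3′, for the 4 genes with the largest rise in the cKO and for Fabp7, which did not pass, so that the proximal promoters of genes that did and did not rise can be read side by side. Capitals mark 3 motifs on either strand, the CCAAT box (CCAAT), the GC box (GGGCGG) and the TATA box (TATAAA).
Nes: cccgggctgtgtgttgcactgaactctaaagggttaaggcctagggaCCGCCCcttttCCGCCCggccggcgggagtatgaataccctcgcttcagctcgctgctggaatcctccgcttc
Sox1: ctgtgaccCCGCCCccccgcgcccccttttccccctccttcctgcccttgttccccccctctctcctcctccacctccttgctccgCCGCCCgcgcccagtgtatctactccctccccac
Vim: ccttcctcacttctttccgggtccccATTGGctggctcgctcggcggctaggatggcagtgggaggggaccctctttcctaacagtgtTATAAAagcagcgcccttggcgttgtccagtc
Sox2: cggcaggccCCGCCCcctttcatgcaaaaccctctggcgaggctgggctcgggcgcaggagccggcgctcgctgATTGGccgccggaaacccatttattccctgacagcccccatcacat
Fabp7: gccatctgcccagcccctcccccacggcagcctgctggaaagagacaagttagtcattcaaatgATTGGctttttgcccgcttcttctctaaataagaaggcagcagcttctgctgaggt
On this build the windows are chr3:87970973-87971092, chr8:12395399-12395518, chr2:13574191-13574310, chr3:34649875-34649994 and chr10:57784803-57784922, all on the plus strand. These starts differ from those of the GENCODE genes whose positions are given with each gene, since they lie 15 (Nes), 224 (Sox1), 384 (Vim) and 42 (Fabp7) bases inside the GENCODE gene and 410 bases before it for Sox2. The windows of Sox1 and Vim thus fall within the GENCODE genes. Over 300 bases, from 250 before the start to 50 after it, and with 1 promoter per gene, a CCAAT box was found in 7 of the 8 promoters (not in Nes) and in 38.0% of all 27025 promoters. A GC box was found in 5 of 8, those of Nes, Prom1, Slc1a3, Sox1 and Sox2, and in 35.9% of all. The TATA box was found in Vim and Slc1a3, and in 14.2% of all promoters. A cAMP response element (TGACGTCA) was found in Pax6 alone of the 8 and in 1.85% of all. No promoter of the 8 held the RBPJ motif GTGGGAA (6.38% of all), the GLI core ACCACCC (4.52%) or the SOX motifs AACAATG (3.86%) and AACAAAG (5.77%). Both the genes that rose and those that did not held CCAAT and GC boxes.

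In the cKO, 6 of the 10 genes rose relative to the floxed control, Nes, Sox1, Vim, Sox2, Sox3 and Prom1, with rises between 19.7% (Prom1) and 41.0% (Nes). None fell, also at an unadjusted p under 0.05, and Sox9, Pax6, Fabp7 and Slc1a3 did not pass the test. Of all tested genes, 19.5% were higher and 18.8% lower in this comparison. Relative to the Cre control, 5 of the 10 were higher, the same genes without Sox3, and none fell, where 4.86% of all tested genes were higher and 4.85% lower. That even split depends on the scaling, with 682 higher and 681 lower here, 532 and 831 after centring the libraries on their medians, and 449 and 1014 on log2(cpm + 1). Between the 2 controls, 0 of the 10 passed (limma), where 0.0570% of all tested genes passed. At an unadjusted p under 0.05, 1 of the 10 was called (Slc1a3), beside 2451 of the 14029 tested genes. The median log2 fold change of the 10 was 0.27 for cKO against floxed control, 0.17 for cKO against Cre control and 0.03 for Cre control against floxed control, where the medians over all tested genes were 0.01, 0.01 and -0.001. No rise was large. A fold change over 1.5 together with the adjusted p was reached by 0 of the 10 in each comparison, and by 2.92%, 0.563% and 0.0285% of all tested genes in the same order. The libraries are of whole tissue, in which more cells of a type and more RNA per cell cannot be told apart.

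**Figure D1:**
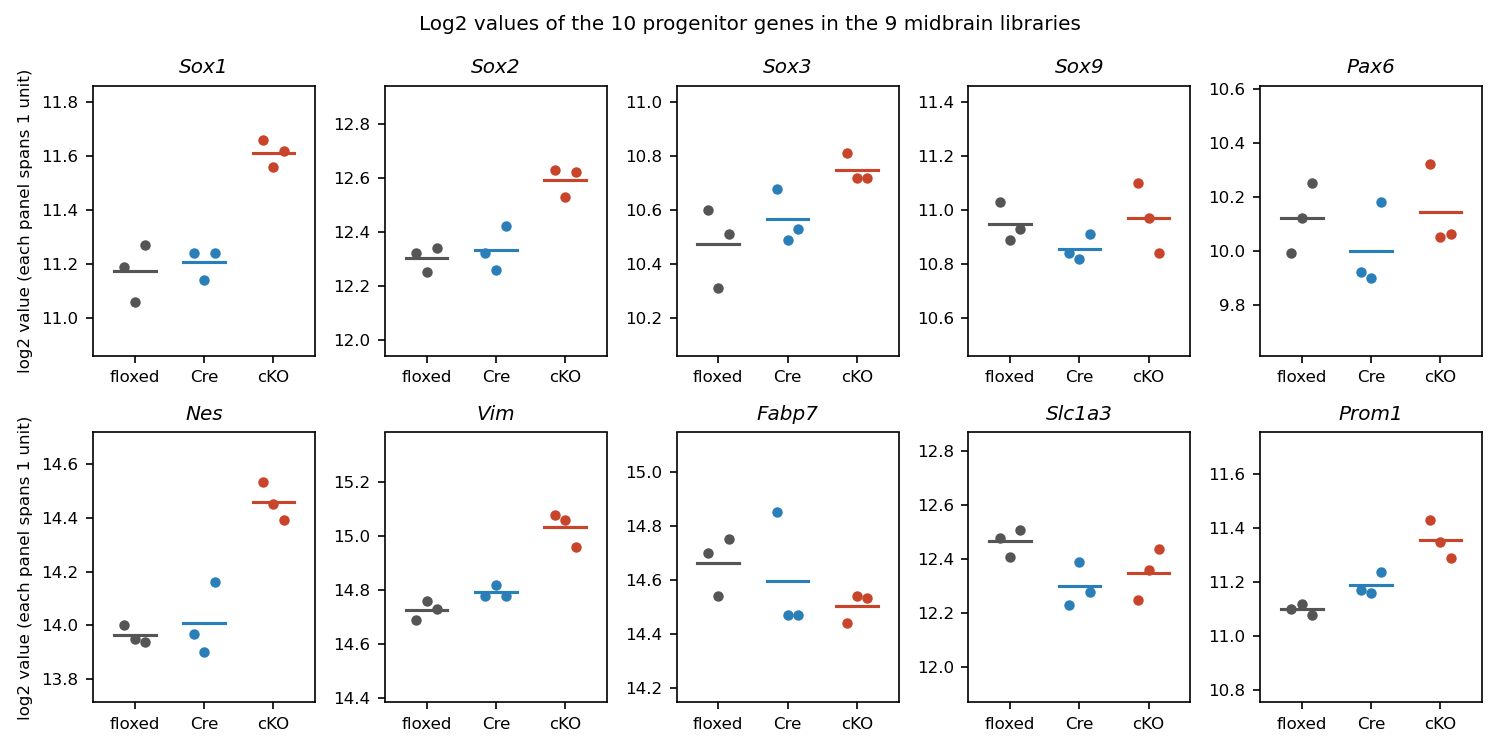
Log2 value (y axis, 1 unit in every panel) of each of the 10 genes in the 3 floxed control, 3 Cre control and 3 cKO libraries, with 1 point per library and a bar at the genotype mean. In 6 panels (Sox1, Sox2, Sox3, Nes, Vim and Prom1) the 3 cKO points lie above all 6 control points, and in the other 4 they overlap with at least 1 control genotype.

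Among the SoxB1 genes, Sox1 (ENSMUSG00000096014, chromosome 8 from 12395295 to 12400126) showed the largest difference. It was at 11.19, 11.06 and 11.27 in the floxed control, at 11.24, 11.14 and 11.24 in the Cre control and at 11.66, 11.56 and 11.62 in the cKO. The 3 cKO libraries lay above all 6 controls, and the controls overlapped. Sox1 rose by a log2 fold change of 0.44 ± 0.056 (SE, n = 3 and 3) relative to the floxed control (limma adjusted p = 6.6e-04) and of 0.41 ± 0.056 relative to the Cre control (adjusted p = 0.00545).

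Sox2 (ENSMUSG00000074637, chromosome 3 from 34650405 to 34652461), a factor that neural stem cells need to renew themselves, was at 12.32, 12.25 and 12.34 in the floxed control, at 12.32, 12.26 and 12.42 in the Cre control and at 12.63, 12.53 and 12.62 in the cKO. The cKO libraries again lay above every control. Its log2 fold change was 0.29 ± 0.051 (SE, n = 3 and 3) relative to the floxed control (limma adjusted p = 0.00219) and 0.26 ± 0.051 relative to the Cre control (adjusted p = 0.0177). With the Cre control as reference, the call on Sox2 held in 16 of 20 alternative fits, with adjusted p up to 0.384 (limma). It was lost, among others, when Cre control replicate 2 or cKO replicate 1 was left out, with log2 fold changes of 0.22 and 0.24 (limma adjusted p = 0.050 and 0.0736).

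Sox3 (ENSMUSG00000045179, X chromosome from 60891366 to 60893430) read 10.60, 10.31 and 10.51 in the floxed control, 10.68, 10.49 and 10.53 in the Cre control and 10.81, 10.72 and 10.72 in the cKO. The cKO libraries did not overlap with the controls, but the step from the highest control, Cre control replicate 1, was small. Sox3 was higher than in the floxed control by 0.27 ± 0.075 (SE, log2, limma adjusted p = 0.0165), and this did not pass without cKO replicate 1 (0.24, adjusted p = 0.0643). Relative to the Cre control, the difference was 0.18 ± 0.075, with a 95% interval from 0.01 to 0.35 (adjusted p = 0.142), and it passed without Cre control replicate 1 (0.24, adjusted p = 0.0456). The 4 Y-linked genes listed were low in floxed control replicate 2 and Cre control replicate 1, with summed levels of 34.1 and 40.4 cpm (a library's share scaled to a common total, computed from the linear values), against 91.7 to 156.6 in the other 7 libraries. With these genes as a covariate the difference of X-linked Sox3 from the floxed control was 0.26 (limma adjusted p = 0.0240).

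Sox9 (ENSMUSG00000000567, chromosome 11 from 112782224 to 112787760), which is also a neural crest and cartilage factor, was at 11.03, 10.89 and 10.93 in the floxed control, 10.84, 10.82 and 10.91 in the Cre control and 11.10, 10.97 and 10.84 in the cKO. The highest and 1 of the lowest of these 9 values were both cKO libraries, so the groups overlapped. The log2 fold change of Sox9 was 0.02 relative to the floxed control, with a 95% interval from -0.13 to 0.17 (limma adjusted p = 0.829), and 0.11 relative to the Cre control, with an interval from -0.03 to 0.26 (adjusted p = 0.277).

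Pax6 (ENSMUSG00000027168, chromosome 2 from 105668900 to 105697364), a forebrain and hindbrain progenitor factor, was at 9.99, 10.12 and 10.25 in the floxed control, 9.92, 9.90 and 10.18 in the Cre control and 10.32, 10.05 and 10.06 in the cKO. All 3 genotypes overlapped. Its log2 fold change was 0.02 relative to the floxed control, with a 95% interval from -0.19 to 0.24 (limma adjusted p = 0.860), and 0.15 relative to the Cre control, from -0.07 to 0.36 (adjusted p = 0.344).

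Of the cytoskeletal genes, Nes (ENSMUSG00000004891, chromosome 3 from 87971078 to 87980451) had the largest difference of the 10 genes. Nes was at 14.00, 13.95 and 13.94 in the floxed control, 13.97, 13.90 and 14.16 in the Cre control and 14.53, 14.45 and 14.39 in the cKO. Cre control replicate 3 was the highest control, and the lowest cKO library was still above it. The log2 fold change was 0.50 ± 0.066 (SE, n = 3 and 3) relative to the floxed control (limma adjusted p = 7.83e-04) and 0.45 ± 0.066 relative to the Cre control (adjusted p = 0.00749), or 41.0% and 36.4% more. With 1 library left out at a time, the first ranged from 0.46 to 0.53 and the second from 0.39 to 0.52.

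Vim (ENSMUSG00000026728, chromosome 2 from 13573927 to 13582826), whose filament protein is also abundant in mesenchyme, was at 14.69, 14.76 and 14.73 in the floxed control, 14.78, 14.82 and 14.78 in the Cre control and 15.08, 15.06 and 14.96 in the cKO. The 3 genotypes did not overlap, in the order floxed control, Cre control, cKO. Vim rose by 0.31 ± 0.046 (SE, log2) relative to the floxed control (limma adjusted p = 0.00122) and by 0.24 ± 0.046 relative to the Cre control (adjusted p = 0.0175), while the step between the controls was 0.07 (adjusted p = 0.458). The Vim call relative to the Cre control held in 14 of 20 alternative fits, with adjusted p up to 0.343 (limma). Among the fits that lost it were those without replicate 3 of the Cre control, cKO replicate 1 or cKO replicate 2 (adjusted p = 0.0641, 0.0740 and 0.0607 by limma).

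Prom1 (ENSMUSG00000029086, chromosome 5 from 43993620 to 44102032), which encodes the stem cell surface protein CD133, was at 11.10, 11.12 and 11.08 in the floxed control, 11.17, 11.16 and 11.24 in the Cre control and 11.43, 11.35 and 11.29 in the cKO. The order of the genotypes was that of Vim, again with no overlap. The step between the controls was 0.09 and did not pass (limma adjusted p = 0.3205). How many of all tested genes had controls without overlap was not counted. Its log2 fold change was 0.26 ± 0.044 (SE, n = 3 and 3) relative to the floxed control (limma adjusted p = 0.00205) and 0.17 ± 0.044 relative to the Cre control (adjusted p = 0.0423). The second was the call nearest to the threshold, and it was lost in 14 of 20 alternative fits, with adjusted p up to 0.442, among them those without Cre control replicate 2 or 3 and without cKO replicate 1 or 2 (adjusted p = 0.110, 0.0737, 0.155 and 0.0989). Across the 14029 genes, 14.7% had every cKO library above every control library, and 6 of the 10 did.

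Fabp7 and Slc1a3, the genes of the list that are most closely tied to glial metabolism, did not pass in any of the 3 comparisons. Fabp7 (ENSMUSG00000019874, chromosome 10 from 57784881 to 57788450) was at 14.70, 14.54 and 14.75 in the floxed control, 14.85, 14.47 and 14.47 in the Cre control and 14.44, 14.54 and 14.53 in the cKO. Cre control replicate 1 was the highest of the 9 libraries, and the spread within the Cre control (SD 0.217) was the widest of any of the 10 genes. The cKO libraries lay at or under the lowest floxed control library and overlapped with the Cre control. The log2 fold change was -0.16 relative to the floxed control, with a 95% interval from -0.38 to 0.05 (limma adjusted p = 0.212), and -0.09 relative to the Cre control, from -0.31 to 0.12 (adjusted p = 0.553). Fabp7 passed as lower than the floxed control with the libraries corrected for GC content and length (-0.26, adjusted p = 0.0170), after quantile normalization (-0.26, adjusted p = 0.0473) and with only the 6 libraries compared (-0.16, adjusted p = 0.0460).

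Slc1a3 (ENSMUSG00000005360, chromosome 15 from 8634124 to 8710764) was at 12.48, 12.41 and 12.51 in the floxed control, 12.23, 12.39 and 12.28 in the Cre control and 12.25, 12.36 and 12.44 in the cKO. The 3 floxed control libraries were above the 3 Cre control libraries, and the cKO overlapped with both. Its log2 fold change was -0.12 for cKO against floxed control, with a 95% interval from -0.25 to 0.01 (limma adjusted p = 0.122, and 0.0478 for a fold change of -0.15 after adjustment for the Y-linked level), 0.05 for cKO against Cre control, from -0.08 to 0.18 (adjusted p = 0.603), and -0.17 for Cre control against floxed control, from -0.30 to -0.04 (adjusted p = 0.204).

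**Figure D2:**
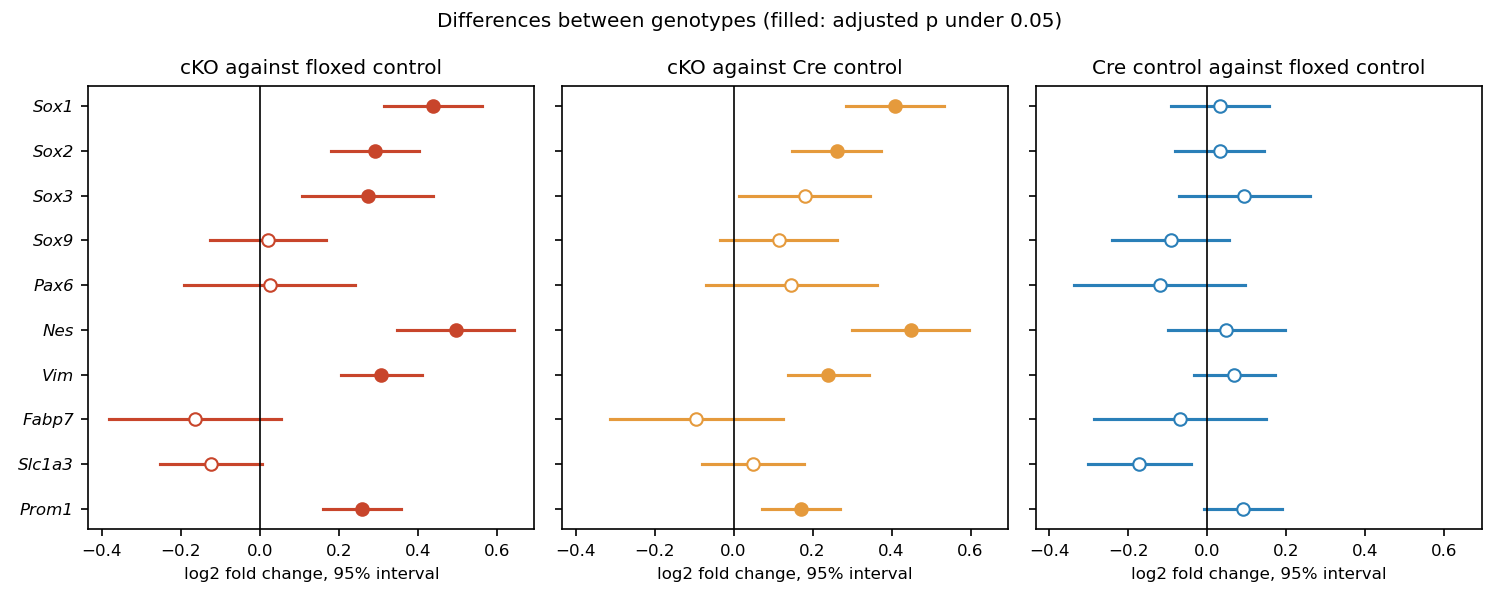
Log2 fold change (x axis) of each of the 10 genes in the 3 comparisons, with its 95% interval from limma, where a filled point passed the adjusted p. In both cKO panels Nes and Sox1 lie farthest to the right, between 0.41 and 0.50, and in the panel of the 2 controls all 10 points are open and lie between -0.17 and 0.09.

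Levels per length differed widely between the 10 genes. Scaled to the longest annotated transcript, as cpm per kilobase and averaged over the 9 libraries, Fabp7 was at 1038, Vim at 374.0, Nes at 110.5 and Sox2 at 98.1. The others followed with Slc1a3 at 44.2, Sox3 at 27.8, Prom1 at 21.5, Sox1 at 19.9, Sox9 at 17.4 and Pax6 at 9.10. The level did not order the differences, since the most abundant gene, Fabp7, and the least abundant, Pax6, both failed to pass. Sox1 moved from 17.7 cpm per kilobase in the floxed control to 23.8 in the cKO and Nes from 96.4 to 134.7. Several of these genes overlap with others in the annotation, Sox2 with Sox2ot, Sox1 with Sox1ot, Pax6 with the antisense gene Pax6os1 and Prom1 with the antisense gene Gm16401. The table has no row by those names and the strand setting of the counting is not given in the sources used here. Whether such pairs shared reads was not tested.

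Within a genotype the 10 genes also varied between libraries. The mean of their centred values, each gene's log2 value less its mean over the 9 libraries, was -0.041, -0.111 and -0.021 in the floxed control, -0.055, -0.117 and -0.031 in the Cre control and 0.172, 0.107 and 0.095 in the cKO. The 6 controls thus spanned 1 range, and cKO replicate 1 was the highest library. It ranked first of the 9 libraries for 8 of the 10 genes and ninth and eighth for Fabp7 and Slc1a3. The 5 tested genes closest to this mean pattern, by the root mean square difference over the 9 libraries, were Hnrnpd (0.0206), Ssrp1 (0.0207), Nelfa (0.0260), Ddx18 (0.0281) and Nudc (0.0293), which encode an RNA binding protein, a histone chaperone subunit, a transcription elongation factor subunit, an RNA helicase and a dynein-associated protein.

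A further list of 26 radial glia and progenitor genes moved in both directions. In the cKO relative to the floxed control, 6 rose, 5 fell and 14 of the 25 tested did not pass, with a median log2 fold change of 0.02. All tested genes also moved in both directions there, with 19.5% higher and 18.8% lower. Fgfr3, an Fgf receptor gene, rose by 0.24 (limma adjusted p = 0.0101) and Phgdh, an enzyme gene of serine synthesis, by 0.24 (adjusted p = 0.00294), and the others that rose were Zfp36l1, Qk, Mfge8 and Rfx4. The largest falls were those of Tnc, which encodes the matrix protein tenascin C, at -0.74 (adjusted p = 0.00492) and of Cdh4, a cadherin gene, at -0.45 (adjusted p = 0.0118). Hopx, Slc1a2 and Lrp2 fell too. With 1 library left out, the count of 6 that rose was 4 or 5. The count of 5 that fell was then between 3 (without cKO replicate 1) and 5. With the Cre control as reference, 4 rose (Fgfr3, Phgdh, Qk and Glul) and 0 fell (limma, 2 at an unadjusted p under 0.05), with Tnc at -0.49 (adjusted p = 0.0698). The shares over all tested genes were 4.86% higher and 4.85% lower. With 1 library left out, the count that rose was 0 (without cKO replicate 1 or 2) to 4, and 3 fell without Cre control replicate 1. Gfap, the astrocyte filament gene, was near 0.2 cpm in every library and was not tested.

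Among 13 other Sox genes tested, 2 rose relative to the floxed control, Sox13 by 0.50 (limma adjusted p = 5.16e-04) and Sox18, an endothelial factor gene, by 0.24 (adjusted p = 0.0271). Sox13 passed in 20 of 20 alternatives and Sox18 in 13. The count of 2 was 1 without floxed control replicate 1 or 3 or cKO replicate 1 or 3. A further 3 fell, Sox14 by a log2 fold change of -0.50 (adjusted p = 0.00381), Sox11 by -0.34 (adjusted p = 0.00315) and Sox12 by -0.18 (adjusted p = 0.00539). The shares over all tested genes in this comparison were 19.5% higher and 18.8% lower. Sox11 and Sox12 belong with Sox4 to the SoxC factors of differentiating neurons, and Sox4 was at -0.14 (adjusted p = 0.117). Relative to the Cre control, Sox13 alone of the 13 passed, at 0.30 (adjusted p = 0.0183). Without cKO replicate 1 none of the 13 passed in that comparison, and without Cre control replicate 1 a further 2 passed as lower. Sox15 and Sox30 were below the level tested.

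Among 6 other Pax genes tested, Pax8 and Pax5, of the midbrain-hindbrain boundary, rose by 0.60 (limma adjusted p = 0.00375) and 0.56 (adjusted p = 0.00311) relative to the floxed control and by 0.56 and 0.39 relative to the Cre control (adjusted p = 0.0223 and 0.0473). Relative to the Cre control, the count of 2 was 0 when replicate 2 or 3 of either genotype was left out. Pax2, which acts at the same boundary, fell, at -0.63 (adjusted p = 0.0146) relative to the floxed control and -0.06 (adjusted p = 0.842) relative to the Cre control. The dorsal factor genes Pax7 and Pax3 fell by 0.48 (adjusted p = 0.00595) and 0.38 (adjusted p = 0.0128) on the log2 scale relative to the floxed control. None of the 3 passed relative to the Cre control. Pax1 did not pass, and Pax4 and Pax9 were below the level tested. Over all tested genes, 19.5% were higher and 18.8% lower relative to the floxed control.

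Among 9 intermediate filament genes tested, Nes and Vim included, 3 rose and 6 fell relative to the floxed control. Over all tested genes, 19.5% were higher and 18.8% lower. Nes and Vim were joined by Des, a muscle filament gene at a low level, at 0.18 (limma adjusted p = 0.0258). The neuronal filament genes Prph and Nefl were at -0.83 (adjusted p = 0.00448) and -0.68 (adjusted p = 0.00122), and Ina, Nefm, Nefh and Synm fell as well. With the Cre control as reference, the same 3 rose and 0 fell (limma, 1 at an unadjusted p under 0.05), with Prph at -0.14 and Nefl at -0.23. The count of 3 was 1 when cKO replicate 1 or 2, or replicate 3 of the Cre control, was left out, and 2 fell without Cre control replicate 1. For Cre control against floxed control, Prph was at -0.69 and Nefl at -0.44, and neither passed (adjusted p = 0.144 for both).

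**Figure D3:**
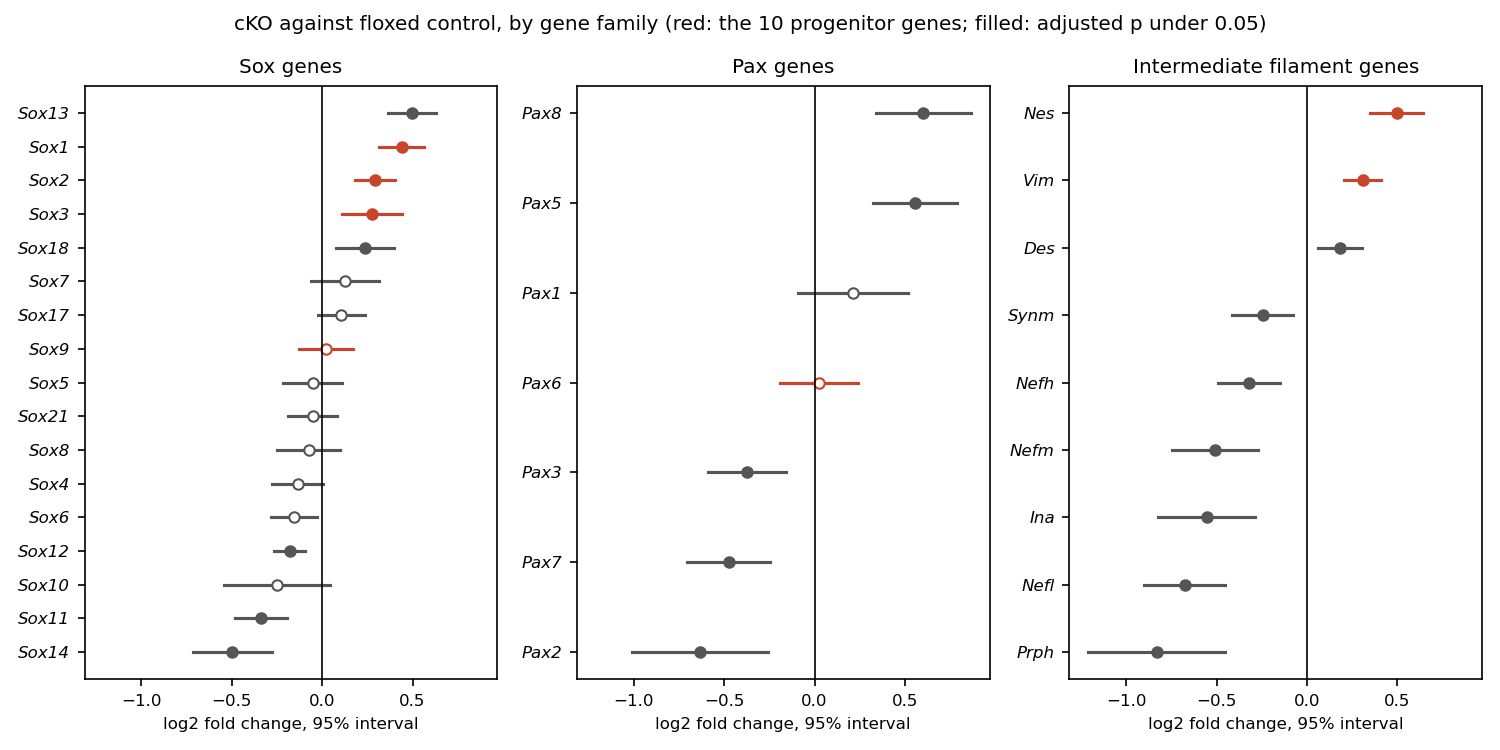
Log2 fold change of cKO against floxed control with its 95% interval for the Sox, Pax and intermediate filament genes tested, where red marks the genes among the 10 and a filled point passed the adjusted p. Nes and Vim lie at the top of the filaments and the neuronal filament genes below 0, while Sox1, Sox2 and Sox3 lie above 0 and Sox11, Sox12 and Sox14 below it.

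Genes of dividing cells and of neurons had larger median differences than the 10 progenitor genes. All 12 proliferation genes listed rose in the cKO relative to the floxed control, from Mcm2 at 0.40 and Pcna at 0.41 to Mcm3 at 0.57 and Aurkb at 0.59 (limma adjusted p = 0.00165 for the last), with a median of 0.48, and all 12 passed with any 1 library left out. Relative to the Cre control 6 of 12 rose, with a median of 0.25. Leaving out cKO replicate 1 or 2, or replicate 2 or 3 of the Cre control, brought that count to 0, and it was 7 without cKO replicate 3 and 11 without Cre control replicate 1. All 17 neuronal genes listed fell relative to the floxed control, from Elavl4 at -0.20 (adjusted p = 0.0458) and Rbfox3 at -0.32 to Mapt at -0.71 and L1cam at -0.73 (adjusted p = 0.00198), with a median of -0.52, and 16 of 17 passed with any 1 library left out. Relative to the Cre control 6 of 17 fell, with a median of -0.25. Leaving out cKO replicate 1 or 2, or replicate 3 of the Cre control, brought that count to 0, and it was 1 without Cre control replicate 2, 4 without cKO replicate 3 and 13 without Cre control replicate 1. Between the controls, 0 of these 29 passed (limma), but 12 proliferation genes were higher and 13 neuronal genes lower at an unadjusted p under 0.05. At that threshold 1231 of the 14029 tested genes were higher and 1219 lower. The median between the controls was 0.22 for the proliferation genes and -0.21 for the neuronal genes, while it was 0.03 for the 10 progenitor genes. The Cre control libraries were not alike for the neuronal list. Cre control replicate 1 had a mean centred value of -0.195, within the range of the cKO (-0.382 to -0.175), while the other two were at 0.078 and 0.116, below the floxed control (0.191 to 0.327). Their mean was -0.0005, and 0.097 without replicate 1, and the median difference from the floxed control was then -0.15. For the proliferation list the Cre control was at 0.092, -0.071 and -0.048, each between the ranges of the floxed control (-0.285 to -0.191) and the cKO (0.147 to 0.376). For the 10 genes the Cre control mean was -0.067, beside the floxed control at -0.058, and -0.074 without replicate 1. That mean joins differences of opposite sign, none of which passed. The 6 genes that rose in the cKO had log2 fold changes between the controls from 0.03 (Sox2) to 0.09 (Sox3). The other 4, Sox9, Pax6, Fabp7 and Slc1a3, were below 0, from -0.07 (Fabp7) to -0.17 (Slc1a3).

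**Figure D4:**
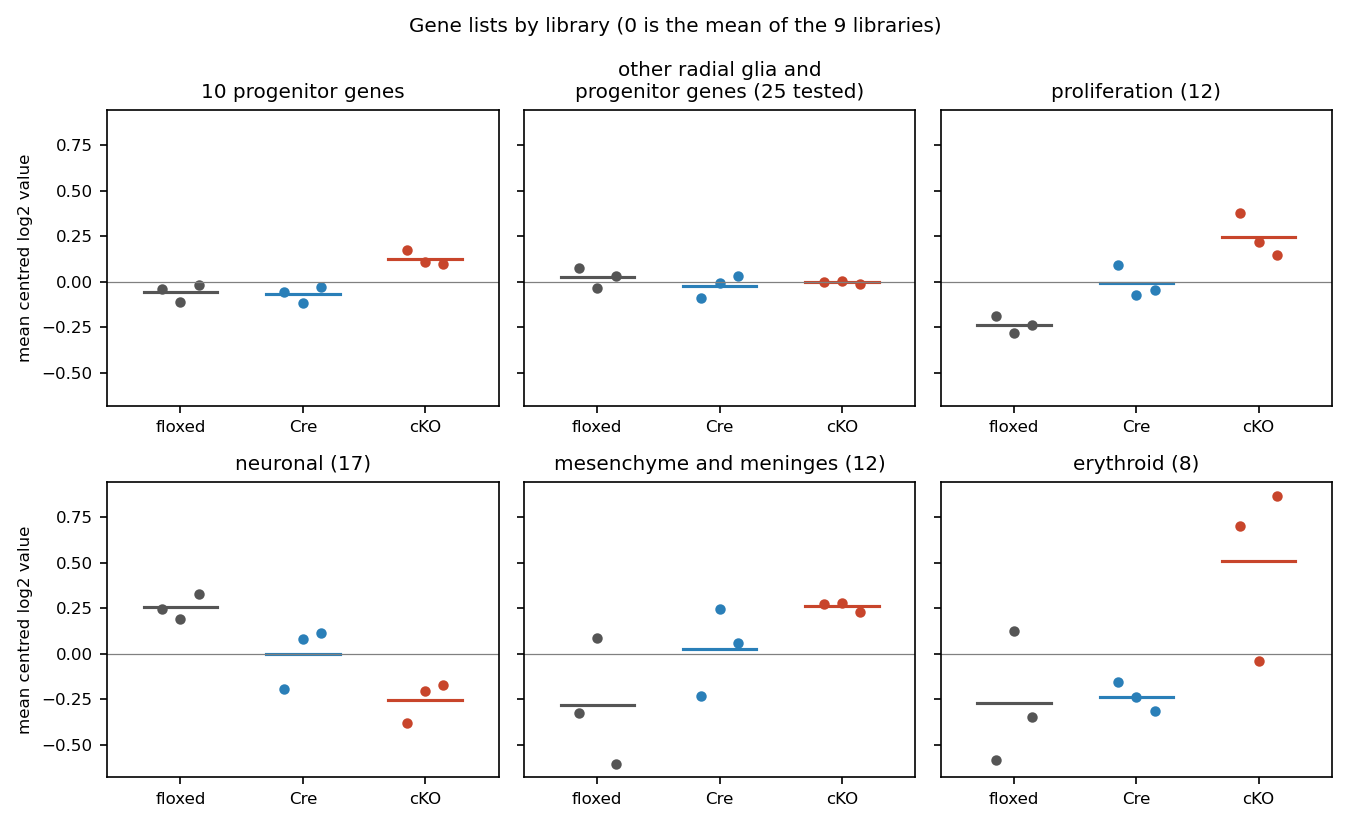
Mean centred log2 value (y axis, 0 is the mean over the 9 libraries) of 6 gene lists in each library, with a bar at the genotype mean. The 10 progenitor genes lie between -0.12 and -0.02 in the 6 controls and between 0.10 and 0.17 in the cKO, while Cre control replicate 1 lies among the cKO libraries for the neuronal list (-0.195) and is the highest Cre control library for the proliferation list (0.092), and the erythroid list has cKO replicate 2 near the controls.

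Markers of cells other than neural cells also differed between the genotypes, and their part in the differences of the 10 genes was tested only as a covariate in the fit. For each of these lists, the shares over all tested genes relative to the floxed control were 19.5% higher and 18.8% lower. Of 8 erythroid genes, 6 rose relative to the floxed control, with Hba-x at 1.02 (limma adjusted p = 0.00783) and Hbb-y at 0.96 (adjusted p = 0.0114) the highest and Hbb-bt at 0.70 and Alas2 at 0.69 the lowest of these. The count of 6 was between 1 (without cKO replicate 1) and 3 without floxed control replicate 1 or 3 or cKO replicate 1 or 3, and 8 without floxed control replicate 2 or cKO replicate 2. Their summed level was between 5610 and 9577 cpm in the floxed control, 6700 and 7891 in the Cre control and 8681 and 16650 in the cKO. Replicate 2 of the cKO was the lowest cKO library, within the floxed control's range. The list's mean centred value was 0.509 in the cKO, -0.270 in the floxed control and -0.239 in the Cre control. A covariate for it thus overlaps with genotype. With the erythroid mean as a covariate, 3 of the 10 genes passed relative to the floxed control, Sox1 at 0.46, Nes at 0.54 and Vim at 0.31 (adjusted p = 0.0344, 0.0344 and 0.0497), and Sox2, Prom1 and Sox3 did not, at 0.28, 0.26 and 0.35 (adjusted p = 0.0781, 0.0659 and 0.0981). None of the 10 passed relative to the Cre control in that fit, with Nes at 0.49 and Sox1 at 0.43 (adjusted p = 0.172 and 0.163), where 16 of all tested genes did.

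Of 12 mesenchyme and meninges genes, 8 rose relative to the floxed control and 0 relative to the Cre control (limma, 2 at an unadjusted p under 0.05). The count of 8 was 3 without any 1 cKO library, 4 without floxed control replicate 1 or 3 and 10 without its replicate 2. Twist1 at 0.79 (adjusted p = 0.0269) and Col3a1 at 0.77 (adjusted p = 0.00832) were the highest of the 8, and Dcn at 0.49 and Foxc1 at 0.45 the lowest. Their summed level was between 1361 and 2320 cpm in the floxed control, 1687 and 2654 in the Cre control and 2637 and 2751 in the cKO. Vim, which mesenchyme also expresses, was higher by 0.27 (limma adjusted p = 0.0335) with this list's mean as a covariate, and 6 of the 10 genes passed relative to the floxed control. The list's mean centred value was -0.607 to 0.083 in the floxed control and 0.227 to 0.280 in the cKO. This fit therefore cannot separate it from genotype. Of 9 endothelial genes, 5 rose relative to the floxed control, from Pecam1 and Tie1, both at 0.25, to Flt1 at 0.37 and Emcn at 0.46 (adjusted p = 0.0171), and 0 relative to the Cre control (limma, 1 at an unadjusted p under 0.05). The count of 5 was 1 without floxed control replicate 1 or cKO replicate 2, 2 without floxed control replicate 3, 3 without cKO replicate 1 or 3 and 6 without floxed control replicate 2. Their summed level was between 247.3 and 317.6 cpm in the floxed control, 273.4 and 341.4 in the Cre control and 321.2 and 344.8 in the cKO. Nes, which new vessels also express, was higher by 0.52 (adjusted p = 0.00653) with the endothelial mean as a covariate. That mean was -0.308 to 0.033 in the floxed control and 0.093 to 0.187 in the cKO, so it too is not separable from genotype.

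The choroid plexus genes varied widely within the controls. Summed over 6 genes they were between 211.4 and 650.5 cpm in the floxed control, 151.8 and 338.6 in the Cre control and 156.1 and 215.7 in the cKO, and 0 of 6 passed in the 3 comparisons (limma). At an unadjusted p under 0.05, 2 of 6 were lower in the cKO and 2 of 6 in the Cre control, both relative to the floxed control. Of the 14029 tested genes, 3229 and 1219 were lower at that threshold in the same order. Without floxed control replicate 1, 3 of 6 passed as lower in the cKO. With their mean as a covariate 5 of the 10 progenitor genes passed relative to the floxed control, and Sox3 did not (0.18, limma adjusted p = 0.149). Of 8 microglia genes, Fcer1g rose relative to the floxed control (0.22, adjusted p = 0.0412), a count of 1 that was 4 without floxed control replicate 2 and 0 without any other library of the comparison, with summed levels from 87.4 to 102.2 cpm in the floxed control, 100.2 to 103.9 in the Cre control and 99.6 to 110.2 in the cKO. Of 5 neural crest glia genes, Fabp7 among them, Erbb3 rose (0.46, adjusted p = 0.0182), though not without cKO replicate 1, and Foxd3 was too low to be tested, at between 0.696 and 0.861 cpm. Of 5 oligodendrocyte precursor genes, Pdgfra rose, which is also on the mesenchyme list, and Olig1 fell (-0.34, adjusted p = 0.0380). Both passed without floxed control replicate 2, 1 as lower without cKO replicate 3, and neither without another library of the comparison. Sox10, on both of the last lists, was between 1.80 and 2.81 cpm. The summed levels were between 908.1 and 1036 cpm, 852.9 and 1128 cpm, and 835.1 and 895.0 cpm for the neural crest glia genes in the floxed control, Cre control and cKO, and between 70.5 and 92.3 cpm, 74.3 and 102.5 cpm, and 96.8 and 102.5 cpm for the oligodendrocyte precursor genes. The part of the choroid plexus, microglia, neural crest glia and oligodendrocyte precursor cells in the differences of the 10 genes was otherwise not tested.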

How the data were processed

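Poly-A libraries of midbrain tissue were sequenced by the authors. The submitters' processing notes name FastQC 0.10.1, kallisto 0.46.1, DESeq2 and the build mm10, without their roles. The authors deposited 1 table of log2 values for 27360 rows, normalized between libraries and shrunk at low levels, by a transformation that is not named, so low genes have compressed fold changes. Depth is unknown, since no counts are in the table.

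The values were taken out of log2 and scaled to cpm, and named genes with at least 1 cpm in 3 libraries were kept (14029). Rows without a gene name held between 0.334% and 0.396% of the linear sum. A mean per genotype was fitted with limma 3.58.1 under R 4.3.3 (eBayes with a trend), over the 9 libraries together, with Benjamini-Hochberg adjustment over all tested genes. Intervals are unadjusted 95% intervals. The fit was tested on simulated data. Positions and lengths are from GENCODE M21 (GRCm38).

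The 10 genes and the lists were chosen with earlier results of these data known. Genes named besides the 10 are the targeted gene, the Wnt1 control (added after its values were seen), from each list the extremes of those that passed, those not tested, genes named to complete a count of 5 or fewer or added after their values were seen, and the 5 closest in pattern. Covariates for mesenchyme, endothelial and choroid plexus markers, and list counts without each library, were also added after seeing the data. A gene of the neural crest glia list is not reported here and was left out of its sum. Replicate numbers were not used as pairs. Alternatives covered the filter, scaling, samples, covariates, threshold and omission of each library.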

Additional observations from a re-analysis of the deposited data

How the results depend on the processing

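Against the floxed control, 6 of the 10 genes passed, and between 5 and 6 with 1 library left out. The count was 7 after quantile normalization, with only the 6 libraries compared, with the Y-linked covariate and corrected for GC content and length. The additional gene passed as lower, Slc1a3 with the Y-linked covariate and Fabp7 in the other 3 fits. It was 5 genes with the choroid plexus covariate, 3 with the erythroid covariate and 0 with a fold change over 1.5 added. Against the Cre control 5 passed, and between 2 and 6 with 1 library left out, 2 with only the 6 libraries compared, 0 with the erythroid covariate and 0 with the fold change added. The count of 2 was without cKO replicate 1, and 3 passed without replicate 2 or 3 of the Cre control or cKO replicate 2. Between the controls, 0 passed under every omission of a library and 1 at an unadjusted p under 0.05.

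Over all tested genes, 5380 passed for cKO against floxed control, and between 3606 and 4821 with 1 library left out, 542 with the erythroid covariate, 2287 with the mesenchyme covariate and 410 with the fold change added. For cKO against Cre control 1363 passed, and between 237 (without cKO replicate 1) and 3292 (without Cre control replicate 1) with 1 library left out, 873 without a filter, 437 with only the 6 libraries compared, 16 with the erythroid covariate, 570 with the mesenchyme covariate, 4109 at an unadjusted p and 79 with the fold change. Between the controls 8 passed, and between 1 (with replicate 3 of the Cre control omitted) and 57 (with its replicate 1 omitted) with 1 library left out, 5 without a filter, 3 with only the 6 libraries compared, 13 without a trend, 29 with the Y-linked covariate, 5, 1, 98 and 1 with the erythroid, mesenchyme, endothelial and choroid plexus covariates, 16 corrected for GC content and length, 2451 at an unadjusted p and 4 with the fold change.

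Signs turned only for differences that did not pass in either fit. For cKO against floxed control, Sox9 ranged from -0.0447 to 0.0867 and Pax6 from -0.0606 to 0.0901 with 1 library left out, Sox9 was -0.0474 with the choroid plexus covariate, Pax6 -0.0381 with the erythroid and -0.0315 with the endothelial covariate, and Fabp7 0.0985 with the mesenchyme and 0.0512 with the endothelial covariate. For cKO against Cre control, Fabp7 ranged from -0.157 to 0.031 with 1 library left out, and was 0.0195 with the mesenchyme and 0.0177 with the endothelial covariate. Between the controls, Sox1 ranged from -0.0253 to 0.0781, Sox2 from -0.0145 to 0.0692 and Nes from -0.0285 to 0.102 with 1 library left out, they were -0.009, -0.0151 and -0.0251 with the choroid plexus covariate, and Fabp7 was 0.079 with the mesenchyme and 0.0335 with the endothelial covariate. The cause of these shifts was not tested.

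After removal of genotype means, libraries with the same replicate number correlated between -0.03 and 0.26, with a median of 0.102. Libraries differing in genotype and number correlated between -0.28 and 0.16, with a median of -0.053. The labels do not say whether a number stands for a shared litter, and the numbers were not taken as pairs in the main fit. With a replicate block, 6, 5 and 0 of the 10 genes passed in the 3 comparisons, and 5683, 1774 and 9 of all tested genes. Against the Cre control in that fit, Sox3 passed (adjusted p = 0.0471 by limma) and Prom1 did not (adjusted p = 0.0502). With 3 libraries per genotype and no depth, differences as small as those of Sox9 and Pax6 could not be told from the spread.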
